A study of Mus musculus with 2 samples.

Results

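MicroRNA genes known from red and white blood cells were followed in the embryonic mouse hindbrain: Mir451a and Mir144 of the erythroid lineage, Mir223 of the myeloid lineage, and Mir155 and Mir150 of lymphoid and activated immune cells. They are 5 of the 1973 microRNA gene rows in the count tables and were matched by Ensembl identifier, not by level. All 5 passed the detection limit of at least 10 counts in both libraries, which 356 rows (18.0%) passed. The tissue was hindbrain of healthy, untreated B6NCrl embryos at embryonic day 13.5, with both sexes pooled. The design is 1 group of 2 libraries of short RNA, numbered 1 and 2 as in the labels, so it has no contrast between conditions. The labels call the libraries biological replicates 1 and 2, with separate biosamples but one donor identifier. Whether separate litters were used is not stated. The exact binomial p-values given below allow for counting error only and measure no spread between embryos. Differences between the libraries may still be technical.

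MicroRNAs are short RNAs that guide Argonaute proteins to messenger RNAs, mainly through bases 2 to 8 at their 5′ end, the seed. Mir144 and Mir451a are made from one erythroid transcript driven by GATA1 and support the maturation of red cells, and miR-451a is cut by Argonaute 2 in place of Dicer. Mir223 is the hallmark microRNA of granulocytes and monocytes. Mir155 is induced in activated B cells, T cells and macrophages, and Mir150 is high in mature lymphocytes, where it represses Myb. At mid-gestation the brain holds vessels filled with nucleated red cells and is being settled by macrophages that become microglia.

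All 5 genes matched an entry of RefSeq on GRCm38.p6, and mature sequences from it follow, 5′ to 3′, with the seed in capitals. miR-150-5p is not among them. They are shown because the seed sets which microRNAs can be grouped together, and because miR-101a-3p, a microRNA outside the blood set, comes close to miR-144-3p.
miR-451a: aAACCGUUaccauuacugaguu
miR-144-5p: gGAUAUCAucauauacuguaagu
miR-144-3p: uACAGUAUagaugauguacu
miR-101a-3p: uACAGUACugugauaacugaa
miR-223-5p: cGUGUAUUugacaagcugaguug
miR-223-3p: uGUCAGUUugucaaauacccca
miR-155-5p: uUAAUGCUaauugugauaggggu
miR-155-3p: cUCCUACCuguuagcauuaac
miR-150-3p: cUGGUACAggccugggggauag

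No seed is shared among the blood microRNAs shown, and 0 of the other sequences among the 1738 mature microRNAs of the table carry one of these seeds over bases 2 to 8. Over bases 2 to 7, miR-144-3p matches miR-101a-3p, from which it differs in the seed by U8C (position counted from the 5′ end, the base of miR-144-3p first). Mir101a stood at 506 CPM in replicate 1 and 535 CPM in replicate 2. CPM is the count of a gene per 1000000 counts in all gene rows of its library. Over the same bases, miR-223-3p matches miR-344f-5p, whose gene Mir344f had 12.3 and 16.2 CPM.

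The hairpins of the erythroid pair, with the mature parts in capitals, show how the counts of a row arise.
Mir144 (chr11:78073005-78073070, plus strand): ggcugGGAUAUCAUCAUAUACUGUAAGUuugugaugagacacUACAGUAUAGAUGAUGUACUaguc
Mir451a (chr11:78073170-78073241, plus strand): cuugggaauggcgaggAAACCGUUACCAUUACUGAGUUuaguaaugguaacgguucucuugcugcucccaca
Mir144 is annotated with a mature arm on each side of the loop. Mir451a has 1 mature sequence, at positions 17 to 38 of 72. Each row counts all reads on its hairpin, so the arms of Mir144, Mir223, Mir155 and Mir150 were not separated.

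On GRCm38, the assembly that mm10 also names, Mir144 (ENSMUSG00000065401.1) and Mir451a (ENSMUSG00000070065.1) are intergenic hairpins 99 nt apart. Mir223 (ENSMUSG00000076066.1) lies at chrX:96242817-96242926 in an exon of the non-coding gene F630028O10Rik. Mir155 (ENSMUSG00000065397.1) lies at chr16:84714140-84714204 in an exon of its own non-coding host, Mir155hg. Mir150 (ENSMUSG00000065495.1) lies at chr7:45121757-45121821, intergenic. Within 10 kb of these genes only Mir144 and Mir451a, as neighbours of each other, have rows in the tables. None of the 5 hairpins shares a stretch of 20 nt with an annotated hairpin at another locus (0 of 5), and none had a read on the opposite strand (0 counts in each library).

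The gene rows held 3006571 counts in replicate 1 and 4508244 in replicate 2. Multimapping reads, 33.9% and 34.5% of all reads, are in no gene row. The hindbrain label was checked against its markers. Of 13 genes listed for this check, 12 had rows and 8 were detected. Mir10a and Mir10b of the Hox clusters ranked 2 and 6 among the 356 detected genes and Mir137, a neuronal microRNA, ranked 30. The other detected genes ranked lower: Mir128-1 at 106, Mir9-3 at 112, Mir128-2 at 120, Mir218-2 at 178 and Mir218-1 at 270. Not detected were Mir9-2, with 9 and 15 counts, and the 3 copies of Mir124a, with 2 to 23 counts per library. Reads that fit more than 1 copy are not counted, so these values do not show a low level. Read counts carry no molecular identifiers, so every interval and every floor given here covers counting error only. A count of 0 would allow up to 0.998 CPM in replicate 1 and 0.665 CPM in replicate 2, based on 3 counts.

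Together the 5 genes had 1462 counts in replicate 1 and 2037 in replicate 2. Their sum was 486 CPM (exact Poisson 95% interval 462 to 512) and 452 CPM (432 to 472), or 469 ± 24.4 CPM (SD, n = 2). This is 0.0486% and 0.0452% of the counts. In mean CPM per hairpin over the libraries, all 5 were below the median of the detected genes, 166 CPM. For Mir155, at 164 ± 30.9 CPM (SD, n = 2) and 186 CPM in replicate 2, the gap is within its spread. The median of the 5 was 105 CPM, which is the mean of Mir451a. It was 141 CPM in replicate 1 alone, set by Mir223, and 57.5 CPM in replicate 2 alone, set by Mir451a.

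Of the erythroid pair, Mir451a differed between the libraries and the values of Mir144 were close. Mir451a had 458 counts, 152 CPM (139 to 167), in replicate 1 and 259 counts, 57.5 CPM (50.7 to 64.9), in replicate 2. Its level was 105 ± 67.1 CPM (SD, n = 2), and the intervals of the libraries lie far apart. Mir144 had 61 counts, 20.3 CPM (15.5 to 26.1), and 94 counts, 20.9 CPM (16.9 to 25.5). Its level was 20.6 ± 0.397 CPM (SD, n = 2), with intervals that overlap almost fully. Reads of Mir451a were therefore 7.51 times those of Mir144 in replicate 1 (exact binomial 95% interval 5.74 to 9.98) and 2.76 times in replicate 2 (2.17 to 3.53). In bulk tissue, fewer cells of a type and less RNA per cell cannot be told apart.

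**Figure D1:**
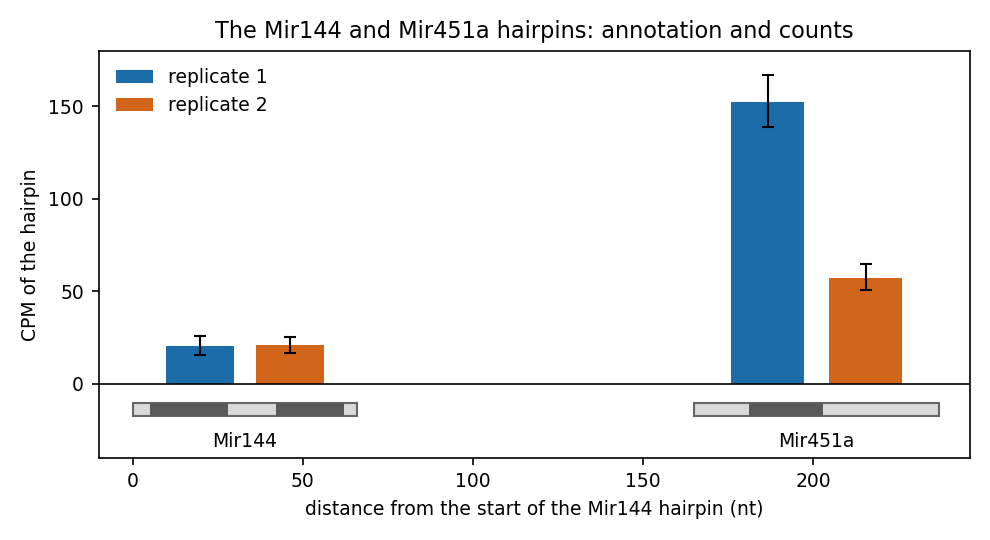
Counts of the Mir144 and Mir451a hairpins in CPM (bars, with exact Poisson 95% intervals) above the annotated hairpins (light grey) and mature sequences (dark grey), against the distance in nt from the start of the Mir144 hairpin. Mir144 stood at 20.3 and 20.9 CPM in replicates 1 and 2, while Mir451a, 99 nt downstream, stood at 152 and 57.5 CPM.

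Mir223, the myeloid gene, had 425 counts, 141 CPM (128 to 156), in replicate 1 and 687 counts, 152 CPM (141 to 164), in replicate 2, or 147 ± 7.80 CPM (SD, n = 2). The libraries' intervals overlap. Mir155 had 427 counts, 142 CPM (129 to 156), and 837 counts, 186 CPM (173 to 199), or 164 ± 30.9 CPM (SD, n = 2). Mir155 was higher in replicate 2, and its intervals do not overlap. Mir150 had 91 counts, 30.3 CPM (24.4 to 37.2), and 160 counts, 35.5 CPM (30.2 to 41.4), or 32.9 ± 3.69 CPM (SD, n = 2), with overlapping intervals.

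**Figure D2:**
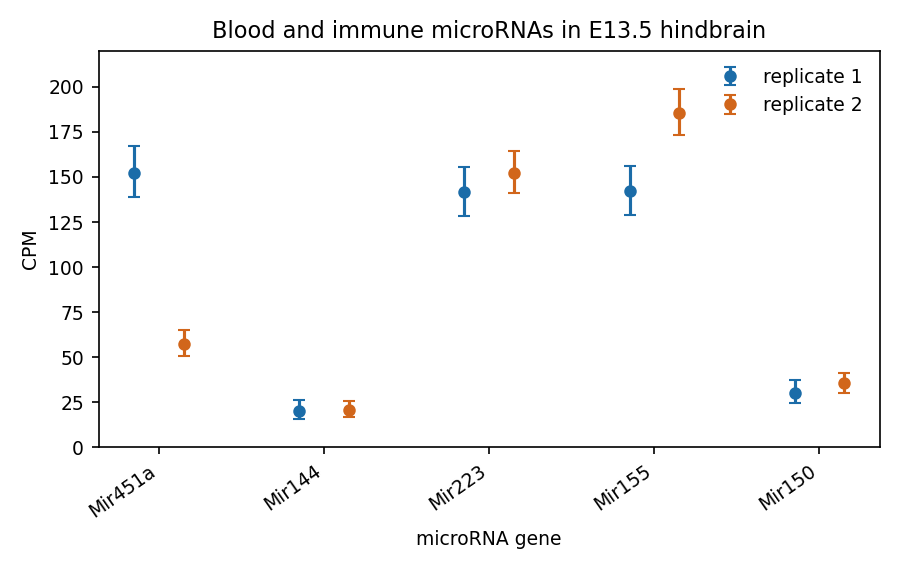
Level of the 5 blood and immune genes in CPM in each library (points) with exact Poisson 95% intervals (bars). Mir451a is at 152 CPM in replicate 1 and 57.5 CPM in replicate 2, Mir155 is at 142 and 186 CPM, and the intervals of the other three genes overlap between the libraries.

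By mean CPM per hairpin the order was Mir155, Mir223, Mir451a, Mir150, Mir144. A microRNA read covers a whole mature sequence, so counts need not scale with hairpin length. Hairpin lengths ran from 65 nt for Mir155 and Mir150 to 110 nt for Mir223, so values per length are given as an alternative. Per 100 nt of hairpin, Mir155 stood at 252 ± 47.5 CPM, Mir451a at 146 ± 93.2 CPM, Mir223 at 134 ± 7.09 CPM, Mir150 at 50.6 ± 5.68 CPM and Mir144 at 31.2 ± 0.602 CPM (SD, n = 2 for each). Mir451a did not differ beyond its spread from Mir155 above it or Mir223 below it, and it was above Mir223 in replicate 1 (212 against 129 CPM per 100 nt) and below it in replicate 2 (79.8 against 139). Per 100 nt, Mir155 was above Mir223 in both libraries, but in replicate 1 this came from the hairpin lengths alone, since the counts were 427 and 425. Mir223 was above Mir150 and Mir144 in both libraries, by counts and per 100 nt. Mir150 was above Mir144 in both, at 46.6 against 30.7 and 54.6 against 31.6 CPM per 100 nt.

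The make-up of the set differed between the libraries. Mir451a held 31.3% of the set's counts in replicate 1 (exact Clopper-Pearson 95% interval 29.0 to 33.8) and 12.7% in replicate 2 (11.3 to 14.2). Mir155 held 29.2% (26.9 to 31.6) and 41.1% (38.9 to 43.3). Mir223 held 29.1% (26.8 to 31.5) and 33.7% (31.7 to 35.8), and these intervals do not overlap, whereas those of its level in CPM do. Mir144 held 4.17% (3.21 to 5.33) and 4.62% (3.75 to 5.62), and Mir150 6.22% (5.04 to 7.59) and 7.86% (6.72 to 9.11), so the shares of these genes have intervals that overlap between libraries. Without Mir451a the remaining 4 genes summed to 334 CPM (314 to 355) in replicate 1 and 394 CPM (376 to 413) in replicate 2, higher in replicate 2, where the sum of all 5 was lower. Within the immune genes, Mir155 had 1.00 times the reads of Mir223 in replicate 1 (0.876 to 1.15) and 1.22 times in replicate 2 (1.10 to 1.35), and 4.69 (3.73 to 5.95) and 5.23 (4.41 to 6.24) times those of Mir150. Both ratios have intervals that overlap between the libraries.

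To set these differences against those of all genes, the counts of each detected gene in replicates 1 and 2 were set against the libraries' scaled totals in an exact binomial test (two-sided), with Benjamini-Hochberg adjustment over the 356 genes. It is a comparison of these libraries and not of conditions, and it allows for counting error only. It passed 2 of the 5 genes, against 45.2% of all detected genes, so the count of 2 is near the background. By direction, 1 of the 5 was lower in replicate 2, against 25.0% of detected genes, and 1 was higher, against 20.2%. Mir451a was 2.72-fold lower in replicate 2 (log2 ratio -1.44 after trimmed-mean scaling, adjusted p = 1.37e-38, exact binomial test). Mir155 was 1.28-fold higher (log2 ratio 0.35, adjusted p = 0.00012, same exact test). Mir150 had a log2 ratio of 0.20 (adjusted p = 0.47), Mir223 of 0.07 (adjusted p = 0.565) and Mir144 of 0.01 (adjusted p = 1), none of which passed the exact test. The median over the 5 was 0.07, beside -0.01 over all detected genes.

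By size of the ratio, Mir451a stood apart from the other four. It was the only one beyond 2-fold, as were 2.81% of the detected genes, 8 lower and 2 higher in replicate 2. Its absolute log2 ratio ranked 3 among the 356, after the heart microRNAs Mir208b and Mir208a. The median absolute log2 ratio of all detected genes was 0.18, and Mir155 ranked 71, Mir150 159, Mir223 273 and Mir144 349. The exact binomial test under other scalings, columns and filters gave adjusted p of 1.33e-38 to 7.88e-37 for Mir451a and 2.24e-05 to 0.000242 for Mir155. EdgeR's exact test was run at the biological coefficient of variation of 0.141 estimated from the same libraries. It passed 1 of the 5 genes, Mir451a (adjusted p = 0.000767), against 1.40% of detected genes, and Mir155 did not pass (adjusted p = 1). EdgeR's test sets 1 library against 1 and takes its spread from the differences it tests, so it ranks genes and gives no evidence that one differs.

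**Figure D3:**
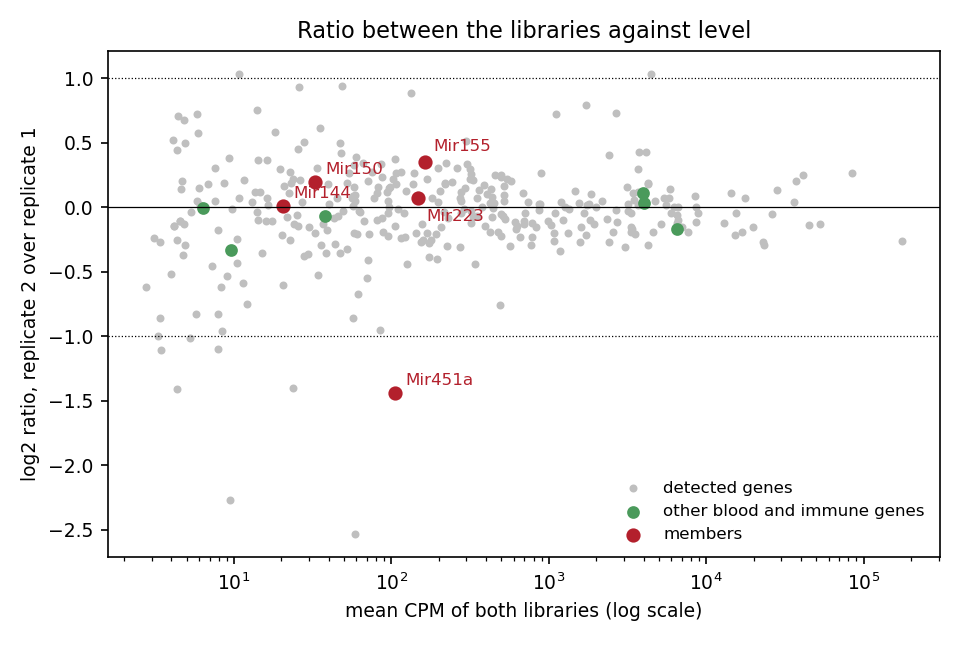
Log2 ratio of replicate 2 over replicate 1 (trimmed-mean scaling) against mean CPM on a log axis for the 356 detected genes (grey), with the 5 blood and immune genes in red and other detected blood and immune genes in green. Dotted lines mark 2-fold. Mir451a lies at -1.44, outside the cloud at its level, and the other red points lie between 0.01 and 0.35.

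Other blood and immune microRNAs were taken as a list of 12, of which 9 had rows and 6 were detected. The erythroid Mir486, in an intron of the red-cell ankyrin gene Ank1, had 32 counts, 10.6 CPM, in replicate 1 and 39 counts, 8.65 CPM, in replicate 2. Its log2 ratio of -0.33 did not pass the exact test (adjusted p = 0.47), and its intervals (7.28 to 15.03 and 6.15 to 11.8 CPM) overlap. Mir451a had 14.3 times the reads of Mir486 in replicate 1 (9.996 to 21.2) and 6.64 times in replicate 2 (4.73 to 9.56), so, as with Mir144, the intervals of the ratio do not overlap between the libraries. Mir486b (Mir3107) is annotated on the opposite strand of the same place and has no row. Reads that fit both strands would be multimapping and in no row. How many did was not tested, so the level of Mir486 and the size of these ratios are uncertain.

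Among the myeloid genes of that list, Mir146 (miR-146a, a brake on NF-kB signalling) had 38.6 and 37.7 CPM in replicates 1 and 2, but shares a 20-nt stretch with Mir146b, so its value is uncertain. Mir147, of activated macrophages, had 6.32 and 6.43 CPM. Mir511, in an intron of the macrophage mannose receptor gene Mrc1, stayed below the detection limit with 6 and 12 counts, as did Mir146b with 4 and 8. Mir146 and Mir147, the detected genes among these, did not pass the exact test. Mir342, Mir652 and Mir21a, given next, are also known from myeloid cells, and of them Mir342 and Mir652 passed.

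The genes of the list with the most counts are also known from cells outside blood. Mir342, in an intron of Evl, stood at 6783 and 6167 CPM, Mir21a, in an exon of Vmp1, at 3906 and 4088 CPM, and Mir652, in an intron of Tmem164, at 3783 and 4171 CPM. Mir342 (log2 ratio -0.17) was lower and Mir652 (0.11) higher in replicate 2 past the exact test, and Mir21a (0.03) did not pass. Over the 6 detected genes of the list 1 passed in each direction, no more than the background of 25.0% lower and 20.2% higher, and the median log2 ratio was -0.04.

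**Figure D4:**
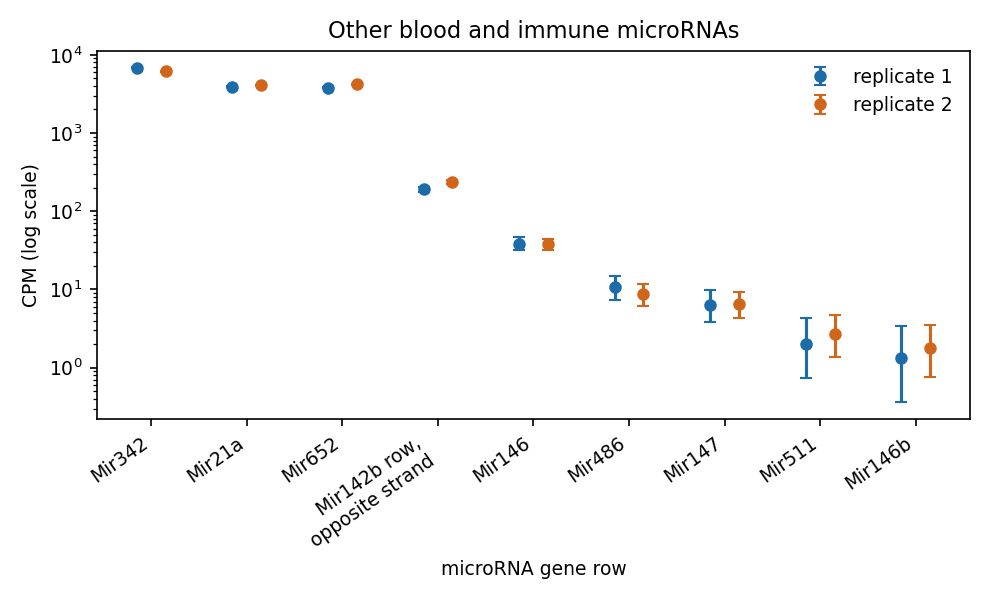
Level of the other blood and immune microRNA rows in CPM on a log axis in each library, with exact Poisson 95% intervals, ordered by mean. Mir342, Mir21a and Mir652 stand between 3783 and 6783 CPM and the erythroid Mir486 at 10.6 and 8.65 CPM. The row of Mir142b is plotted with the reads on its opposite strand.

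Mir142, the microRNA most widely found in white blood cells, was not analysed as a row of its own. The row of Mir142b, annotated at chr11:87756841-87756955 on the minus strand, had 0 counts on that strand and 570 and 1067 counts on the opposite strand, where GENCODE M21 has Mir142 at chr11:87756864-87756927. These were 190 CPM (174 to 206) in replicate 1 and 237 CPM (223 to 251) in replicate 2. Like the reads of Mir155, and unlike those of Mir451a, they were higher in replicate 2, with intervals that do not overlap.

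Markers of other tissues and cell types also differed between the libraries, and their part in the values of Mir451a was not tested. The lists were chosen with earlier results of these data known, and genes of a list may not vary independently. Counts of genes past the test are therefore description only. Of 8 measured muscle microRNAs 3 were detected and 3 (Mir1a-1, Mir133a-1 and Mir133a-2) were at 0 in both libraries. Reads that fit more than 1 copy of a gene are in no row, so these 0 counts do not show absence. The heart genes Mir208b and Mir208a were lower in replicate 2, with 302 and 80 counts and 47 and 15 counts in replicates 1 and 2, while the skeletal muscle Mir206 was higher, with 98 and 289 counts. The muscle list summed to 152 and 90.1 CPM. Of 7 epithelial genes, all detected, 4 were lower past the exact test, against 25.0% of all detected genes. Among them Mir200b, with 103 and 60 counts and a log2 ratio of -1.40, came close to Mir451a. The epithelial list summed to 801 and 688 CPM. The mesenchyme list summed to 821 and 538 CPM, with 2 of its 3 detected genes lower past the test, against the same 25.0%.

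The choroid plexus and multiciliated list went the other way, from 4991 to 9694 CPM, with 4 of its 6 detected genes higher past the test, against 20.2% of all detected genes. Vessel and liver markers differed by less. The endothelial Mir126a had 20540 and 18917 CPM (log2 ratio -0.15, past the test) and the mural list summed to 6772 and 6370 CPM with 1 of 2 genes lower past the test, too few to set against the 25.0% of all detected genes. Mir122, the hepatocyte microRNA of the liver, the main blood-forming organ at this stage, had 36.9 and 42.8 CPM (log2 ratio 0.18, adjusted p = 0.452, exact binomial test).

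**Figure D5:**
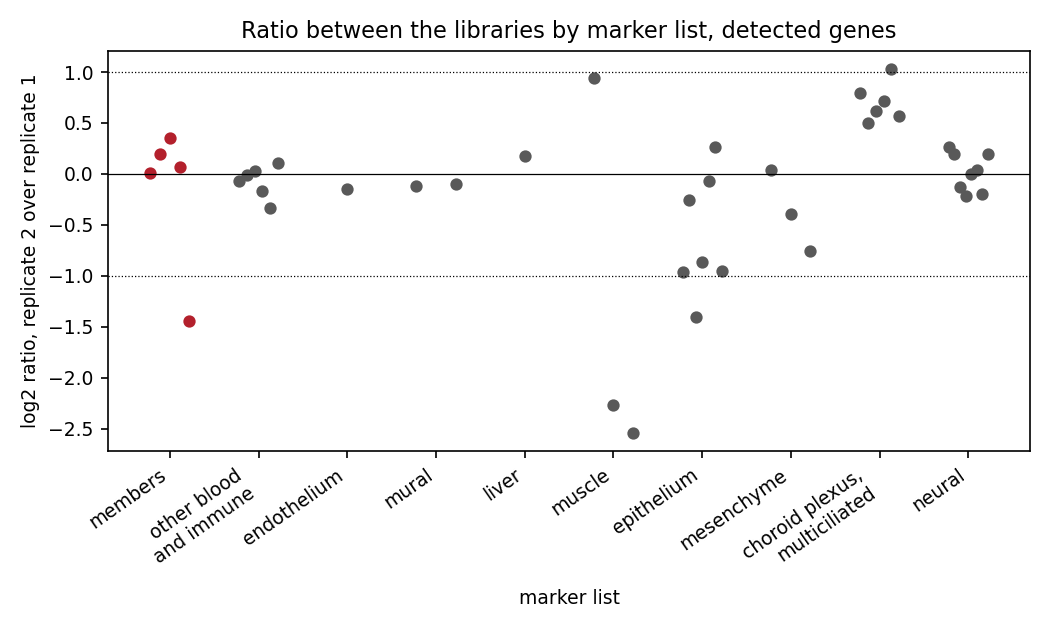
Log2 ratio of replicate 2 over replicate 1 for each detected gene of the 5 blood and immune genes (red) and of the marker lists (grey), 1 point per gene. Mir451a at -1.44 lies below every endothelial, mural, liver, mesenchymal and neural marker. The epithelial Mir200b, at -1.40, lies almost level with it, and only Mir208a and Mir208b of the muscle list lie lower.

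Over the 2 libraries, the detected genes nearest to each blood gene in log2(CPM + 1) were found by Euclidean distance. For Mir451a they were Mir429, of the epithelial mir-200 family, with 110 and 58.6 CPM at a distance of 0.461, and Mir673 at 0.852. Nearest to Mir223 and second to Mir155 was Mirlet7a-1, at 0.0159 and 0.276, with Mir1306 second to Mir223 at 0.0531 and Mirlet7a-2 nearest to Mir155 at 0.112. Mir150 was nearest to Mir450b (0.0178) and Mir493 (0.0829), and Mir144 to Mir1955 (0.110) and Mir551b (0.112). Likeness over 2 libraries mostly restates level, and Mir451a had the most distant nearest gene of the 5.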

How the data were processed

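Short RNA from hindbrain was sequenced in 2 libraries. The authors deposited raw read counts per microRNA gene, aligned to mm10 with GENCODE M4, per the deposited README. The aligner and counter were not given in the sources used here. Of 3 unnamed count columns, the strand column with the larger total was taken as the annotated strand. Gene rows held 49.0% and 47.5% of reads. Summary rows (multimapping 33.9% and 34.5%, unmapped 14.0% and 14.6%, no feature 3.15% and 3.39%) stayed out of totals. Names and places came from GENCODE M21, sequences from RefSeq GRCm38.p6. Trimmed-mean sizes and the edgeR exact test came from edgeR 4.0.16, size factors from DESeq2 1.42.0, exact binomial tests and intervals from SciPy 1.17.1, with a threshold of 0.05. With 1 group, edgeR's quasi-likelihood test could not be run. The binomial script was tested on simulated data with counting error only, which is what the test assumes. That run does not show how the test behaves where libraries differ by more. The genes named were the 5 members, a list of 12 other blood genes, miRNA neighbours within 10 kb, genes sharing a seed (matches over bases 2 to 7 were added after the values were seen), marker genes and the 2 nearest genes by level. Members and lists were chosen with earlier results of these data known. Alternatives were other scalings, the either-strand column, other count minimums, either library alone and hairpin length.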

Additional observations from a re-analysis of the deposited data

Results flagged for a closer look

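A signal in a column that the comparisons did not use was seen at the Mir142b row. Reads on the strand opposite to the annotated one reached a mean of 213 ± 33.3 CPM (SD, n = 2), from 570 and 1067 counts, against 0 counts on the annotated strand. This is above what a count of 0 allows, 0.998 and 0.665 CPM in replicates 1 and 2. GENCODE M21 has Mir142 on the strand that holds the reads. Mir486 had 3 and 1 opposite-strand counts.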

How the results depend on the processing

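The 5 genes were detected with minimums of 1, 10 and 50 counts and with the either-strand column. Of 25 recomputed log2 ratios (5 genes under library totals, DESeq2 size factors, the either-strand column, no filter on low counts, and edgeR's exact test), 24 kept direction and side of the threshold. The exception was Mir155, past the exact binomial test and not past edgeR's exact test with the estimated coefficient of variation (adjusted p = 1). Under that test 1 of the 5 genes and 5 of all detected genes passed, against 2 and 161. With all reads of the table as the denominator the summed level was 226 CPM, against 469, by construction. With CPM per hairpin the order was Mir155, Mir223, Mir451a, Mir150, Mir144. Of the 5 ranks, 2 to 5 were the same with either library alone (Mir451a was first in replicate 1) and 3 per 100 nt of hairpin, where Mir451a and Mir223 change places. Depth limits Mir144, Mir150 and Mir486, with 32 to 160 counts. With 2 libraries, no interval for the spread between embryos was computed.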
